A study of Homo sapiens with 4 samples.

Results

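The baseline transcriptome of KM-H2, a cell line established from Hodgkin lymphoma, was read from the 2 arrays of non-silencing control cells. They are 2 of the 4 arrays in the series. KM-H2 grew under standard culture conditions, and a control group that received non-silencing RNA was set beside a group in which the phosphatase gene PTPN1 was knocked down by siRNA. The labels call the arrays of a group technical replicates and do not say whether non-silencing arrays 1 and 2 share a culture or an RNA extract. What a difference between them measures therefore cannot be told from the labels, and some named genes differed by more than 2-fold. Total RNA was amplified in 2 cycles, labelled with biotin and hybridised to Affymetrix expression arrays. All values here are log2 RMA signals, a scale on which a difference of 1 is a 2-fold difference in brightness. Each of 19775 genes was represented by whichever of its probe sets had the highest mean signal across the series. A gene was called expressed when both control arrays read at least 6 and silent when both read below 4.1. Genes were ranked by the mean of the control arrays. The classes were thus chosen by the measured control signal itself, which describes them and carries no test. Probe sets differ in affinity, so a rank is a rank of brightness and not of transcript number, and a silent gene is a dim one.

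Hodgkin and Reed-Sternberg cells descend from germinal centre B cells and are known for having lost much of the B cell programme. They are known to carry constant NF-kB and JAK-STAT signalling, to secrete chemokines that draw other blood cells around them, and to show genes of other lineages. B cell identity normally rests on the transcription factors PAX5, EBF1 and TCF3, which switch on the antigen receptor, its signalling proteins and the B cell surface molecules, while ID2 binds and blocks TCF3-type factors.

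Of the 19775 genes, 9707 were expressed, which is 49.1% of all genes. Another 2769 were silent, which is 14% of all genes, and 7299 (36.9%) lay between. Those percentages over all genes are the background for the counts below. Many lists below hold protein-coding genes, whose own expressed share, given next, was higher. The control mean ranged from 2.16 to 14.78 with a median of 6.04. Protein-coding genes and non-coding genes differed widely in these shares. Among 16520 protein-coding genes 56.3% were expressed and 10.1% silent, with a median of 6.73. Among 2657 long non-coding RNA genes 10.8% were expressed and 35.2% silent, with a median of 4.39, and transcribed pseudogenes lay between with 20.6% expressed.

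**Figure D1:**
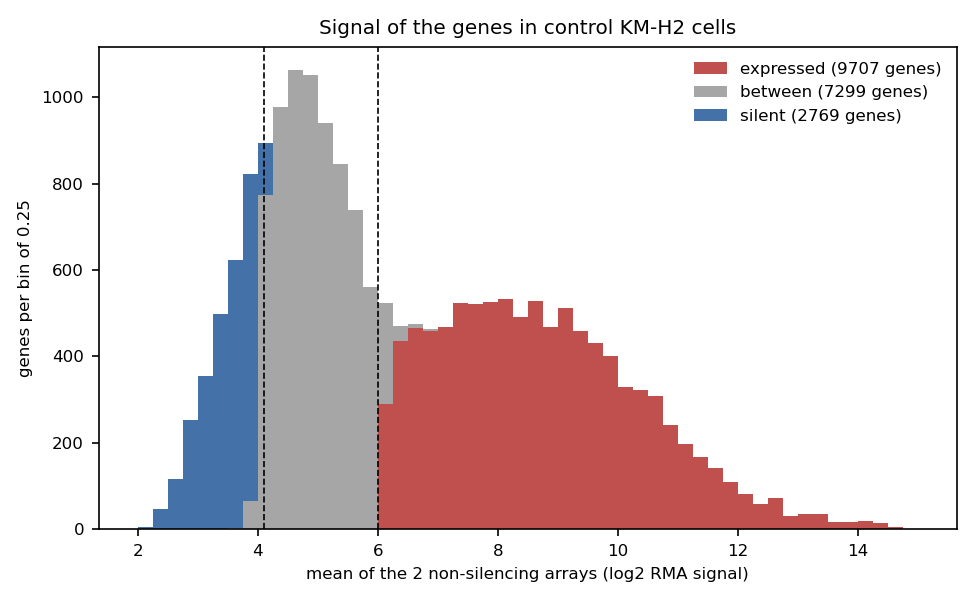
Number of genes (vertical axis, per bin of 0.25) by the mean of the 2 non-silencing arrays in log2 RMA signal (horizontal axis), stacked by class, with dashed lines at 4.1 and 6. The tallest bin runs from 4.5 to 4.75 and holds 1063 genes, so the low peak lies mostly between the thresholds, while expressed genes form a broad shoulder that thins out above 9.

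Both thresholds cut through a continuous distribution. Just inside the expressed class lay NKX6-3, LIMS2, HOXC8, LRRN2 and INAFM1, whose lower array read between 6.00021 and 6.00166. Just outside lay MYPOP, LINC01560, TRIM59, LDB1 and LINC02175, whose lower array read between 5.99723 and 5.99898. TTC6, ORF1, JPH1, CCL23 and LOC101929174 were the last silent genes, with a higher array between 4.09935 and 4.09996. CRNDE, ARHGEF38, LINC00877, MIR181A2HG and AS3MT just missed that class, at 4.10018 to 4.10119. As a reference for empty signal, the 3 probe sets for the bacterial trp gene, a sequence that human cells lack, read 3.15 to 3.88 on the control arrays. These readings lie in the range of the silent class. Most members of the muscle, sperm, liver and nervous system lists given below fell between the thresholds, and that class was not read as weak expression.

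PTPN1, the targeted phosphatase, read 8.16 and 8.40 on the non-silencing arrays and 7.0 and 7.36 on the knockdown arrays, which is the direction the labels give. The median over all probe sets was 5.12 on each control array. Few genes were in opposite classes on the arrays, while more of them crossed a single threshold. Array 1 had 9935 genes at or above 6 and array 2 had 9992, with 513 genes above on 1 array only, and 625 genes were below 4.1 on 1 array only. The genes GIMAP4 (4.06 and 6.47) and ABCA12 (4.03 and 6.29) were the 2 that read below 4.1 on one array and at least 6 on the other, and both lay in the intermediate class. Among expressed genes the median absolute difference between the arrays was 0.21 and 150 genes (1.55%) were at least 2-fold apart.

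**Figure D2:**
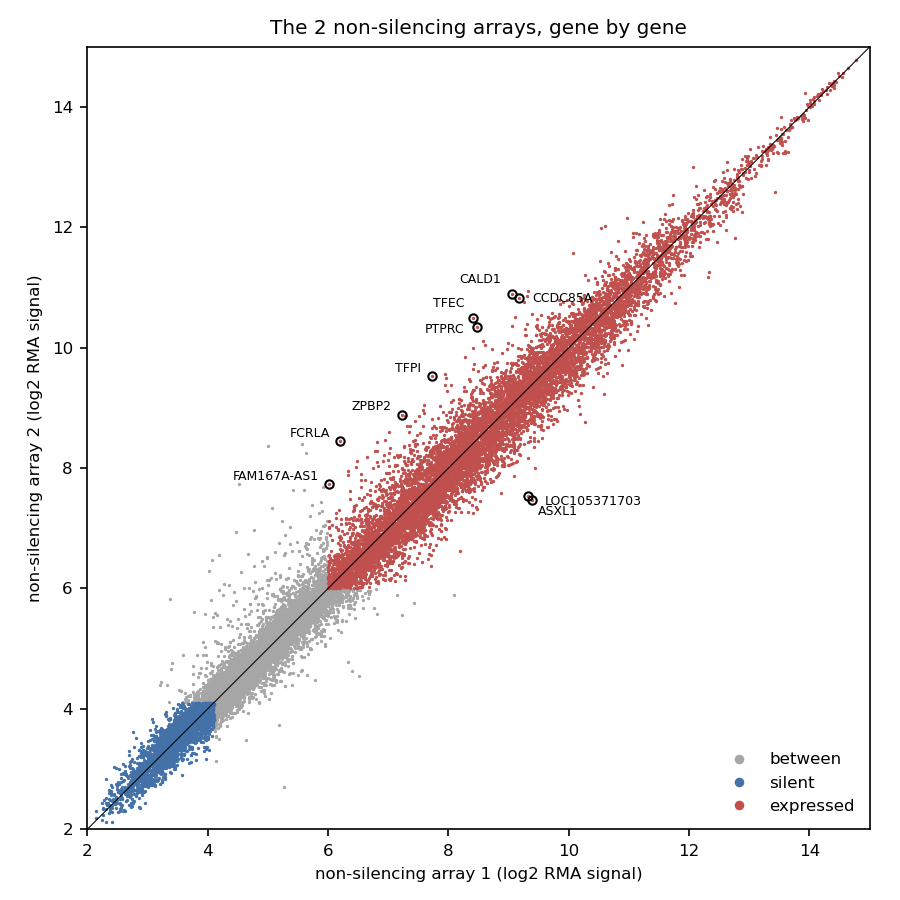
Each point is a gene, with its log2 RMA signal on non-silencing array 1 (horizontal) and array 2 (vertical), coloured by class, and the line marks equal signal. Circles mark the 10 expressed genes with the largest difference between the arrays, from FCRLA (6.20 and 8.46) to CCDC85A (9.18 and 10.83), of which 8 lie above the line.

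Of 5 markers of Hodgkin cells, which were chosen with earlier results of these data known, 4 were expressed. They describe the line by the same signals that define the class. TNFRSF8, which encodes the diagnostic surface antigen CD30, read 8.82 and 8.16. CD40, a receptor through which T cells stimulate B cells, read 8.71 and 9.26. GATA3, a T helper transcription factor known to appear in Hodgkin cells, read 10.23 and 10.26 and had 3 probe sets, all expressed. STAT3, a transcription factor activated by cytokine receptors, read 8.16 and 8.28. CCL17, the chemokine TARC that attracts T helper cells, read 5.86 and 6.16 and missed the class by its first array, so its only probe set lay on the threshold.

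Genes known from Hodgkin cells were mostly bright. Of 42 measured list members 33 (78.6%) were expressed and 0 were silent, with a median of 8.82 against 6.04 for all genes. ID2, the inhibitor that keeps TCF3-type B cell factors off DNA, was the brightest member at 12.98 and 13.05, rank 137 of all genes. The immunosuppressive lectin gene LGALS1 (13.00 and 12.92) and the activation marker CD83 (12.58 and 12.82) followed closely. BCL2A1, an anti-apoptotic NF-kB target, read 11.74 and 11.93. The AP-1 partners BATF3 (11.92 and 11.21) and BATF (11.25 and 10.68) stood with JUNB (10.01 and 9.94) among the bright transcription factors. CD70, the ligand of CD27, read 11.08 and 11.30, and EBI3, a subunit shared by cytokines of the IL-12 family, read 10.67 and 11.21. IRF4, a factor of activated B cells and plasma cells, read 10.77 and 10.33.

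The promoter of ID2 is printed here because it shows the base composition that most expressed genes shared, described further below. The window is the 150 bases that end just before the start site listed by RefSeq on GRCh38.p14, chr2:8681906-8682055 on the plus strand, and capitals mark each CG dinucleotide, of which it has 19.
ID2: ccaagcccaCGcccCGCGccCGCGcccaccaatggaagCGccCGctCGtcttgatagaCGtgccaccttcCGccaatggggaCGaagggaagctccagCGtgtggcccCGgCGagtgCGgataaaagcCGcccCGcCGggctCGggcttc

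Several well-known Hodgkin genes were dim in this line. The 9 members outside the expressed class were CLU, CD274, CCL17, TNFAIP2, GATA2, CCL22, MDK, IL13 and PDCD1LG2. CCL22, a second T helper chemokine, read 5.43 and 5.52. PDCD1LG2, which encodes the checkpoint ligand PD-L2, was the dimmest at 4.94 and 4.97. CD274, which encodes PD-L1, read 5.36 on array 1 and 7.03 on array 2, a difference of 1.67 between the arrays, and its other probe set read 4.80 and 4.81. The colony stimulating factor CSF1 (7.09 and 7.05) and its receptor CSF1R (7.05 and 7.08) were both expressed at moderate signal.

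The transcription factors of B cells were largely present. Of 19 measured factors 13 (68.4%) were expressed and 0 were silent, with a median of 7.65. The expressed share was 49.1% over all genes and 56.3% over protein-coding genes. TCF3, the E protein that starts B cell commitment, read 10.79 and 10.87, and BCL11A, a lymphoid zinc finger factor, read 10.89 and 10.67. IKZF1 (10.18 and 9.81), FOXP1 (9.76 and 9.91) and ETS1 (9.46 and 10.01) were also bright. EBF1 read 7.73 and 8.32, but its other 3 probe sets did not reach the class. PAX5, the factor that holds B cell identity, read 7.42 and 7.17, with a further probe set at 5.20 and 5.39. The germinal centre repressor gene BCL6 read 8.22 and 8.05. The 6 factors below the threshold included the PU.1 gene SPI1 (4.65 and 4.62), the coactivator gene POU2AF1 (5.18 and 3.73), BACH2 (4.60 and 4.80) and LMO2 (4.13 and 4.38).

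Downstream of these factors the picture was different. Of 33 measured B cell surface and signalling genes 12 (36.4%) were expressed, below the 49.1% of all genes, and 3 were silent, with a median of 5.21. CR2, the complement receptor CD21, was the brightest member at 12.55 and 12.53, rank 226. The value rests on a single probe set, since the other CR2 probe set read 4.08 and 3.42. CD74, the invariant chain of antigen presentation (10.76 and 10.52), and CD24, a glycoprotein of immature and activated B cells (9.47 and 10.32, with all 6 of its probe sets expressed), came next. Genes of antigen receptor signalling were found on both sides of the threshold. The kinase genes LYN (9.57 and 9.50) and BLK (7.15 and 7.40), the adaptor gene BLNK (6.98 and 7.77) and the phospholipase gene PLCG2 (6.22 and 6.22) were expressed. BCL10 (9.18 and 9.30) and MALT1 (7.87 and 8.45), which link the receptor to NF-kB, were expressed as well. The kinase genes SYK (4.5 and 4.44) and BTK (5.10 and 4.56) did not reach the class. The receptor's own signalling chains stood at the threshold or below it, with CD79A at 6.03 and 6.44 and CD79B at 5.20 and 5.12. CD22, an inhibitory co-receptor, read 6.12 and 6.07, and MS4A1, which encodes CD20, read 5.20 and 4.46. Silent members were BANK1 (4.06 and 3.98), TNFRSF17 (4.01 and 3.32) and FCRL1 (3.42 and 3.29), the Fc receptor-like gene with the dimmest signal of the list.

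The windows upstream of CR2 and FCRL1, the brightest and the dimmest member, are set side by side to show how unlike their base composition is. The pair does not stand for the list. Of its 20 promoters searched 3 were rich in CG by the measure described further below, and of the 9 of expressed members also 3. CR2 lies at chr1:207454178-207454327 on the plus strand and FCRL1 at chr1:157820121-157820270 on the minus strand, and capitals again mark CG, with 14 in the first and 1 in the second.
CR2: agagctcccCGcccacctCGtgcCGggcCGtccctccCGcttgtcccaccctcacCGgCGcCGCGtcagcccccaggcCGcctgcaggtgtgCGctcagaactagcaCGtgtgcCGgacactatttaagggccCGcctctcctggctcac
FCRL1: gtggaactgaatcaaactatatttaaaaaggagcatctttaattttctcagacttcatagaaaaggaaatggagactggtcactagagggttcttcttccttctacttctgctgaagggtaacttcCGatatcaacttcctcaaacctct

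Immunoglobulin genes were mostly dim. Of 9 measured constant region and surrogate chain genes 2 were expressed, IGLC1 (9.02 and 9.51) and IGKC (6.81 and 7.37). Light chain probe sets share sequence within their families, so these values may not belong to a single gene. A probe set assigned to the kappa locus (IGK) under several symbols, left out by the rule, read 9.32 and 10.13. IGHM, the heavy chain of IgM, read 8.10 on array 1 and 5.89 on array 2, and IGHD (5.80 and 5.31), IGHG1 (5.44 and 5.29) and IGHA1 (4.79 and 4.65) did not reach 6. Plasma cell genes gave 5 expressed members of 13. These were the secretory pathway genes SSR4, SEC11C, FKBP11 and XBP1 together with IRF4. PRDM1, the plasma cell master regulator, read 5.78 and 5.90, and the plasma cell surface genes SDC1 (4.77 and 4.90) and CD38 (4.77 and 4.73) were lower.

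**Figure D3:**
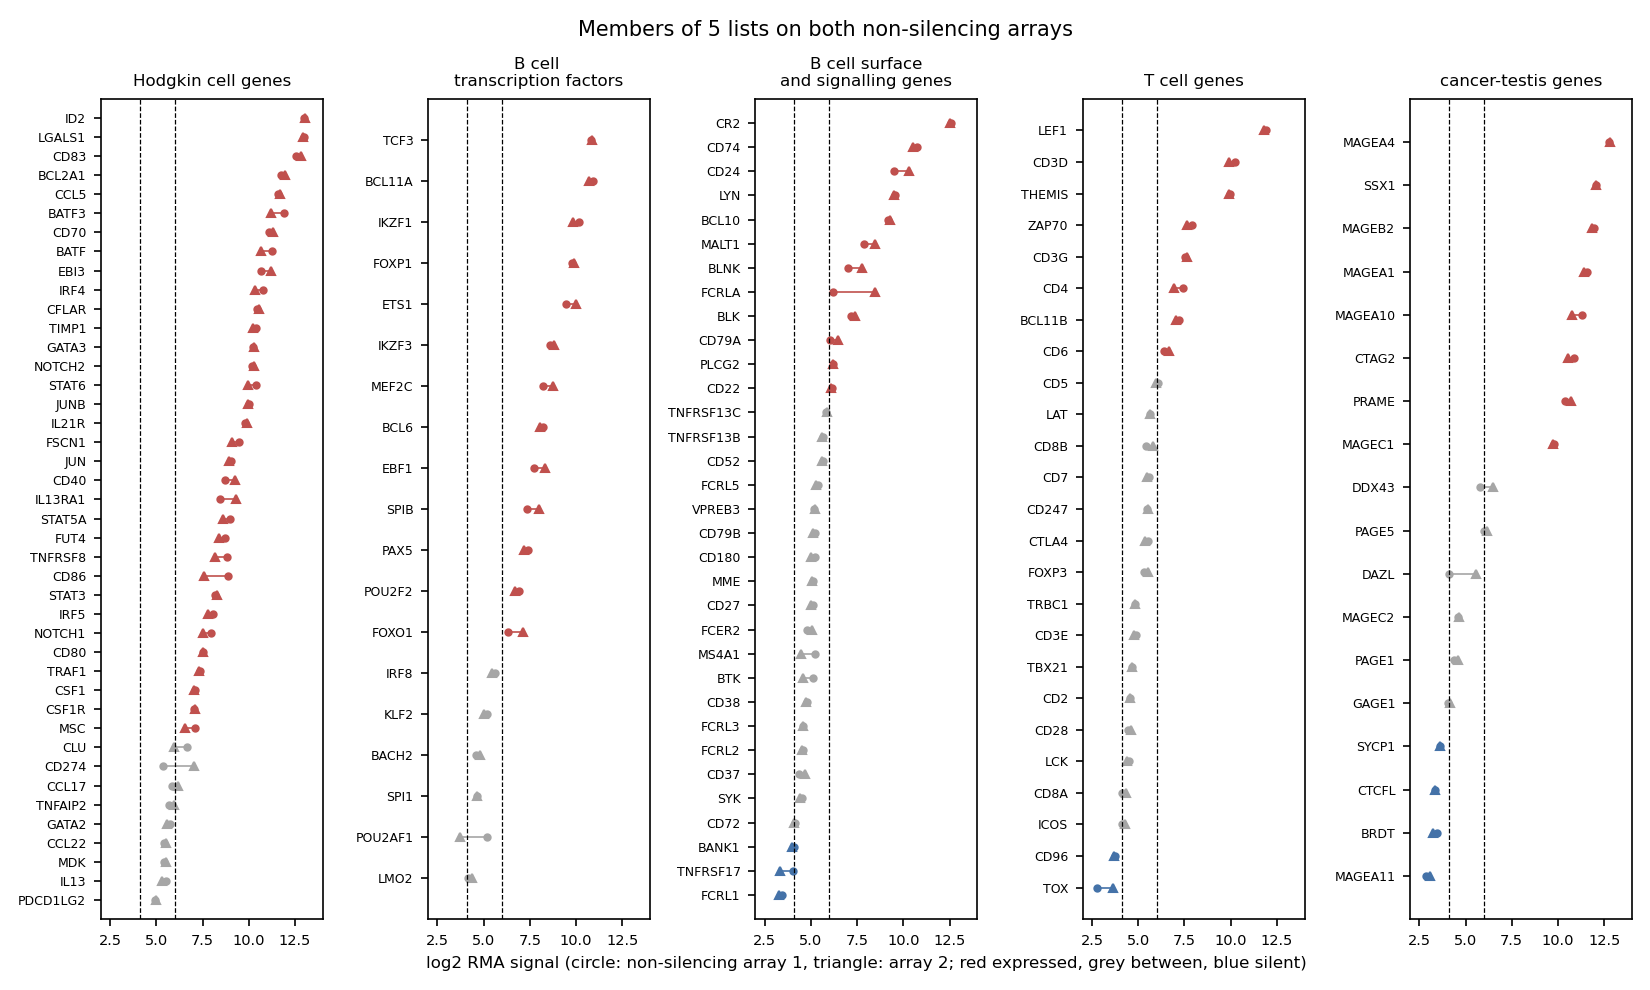
Log2 RMA signal (horizontal axes) of every measured member of 5 gene lists, with a circle for non-silencing array 1, a triangle for array 2, colour for the class and dashed lines at 4.1 and 6. B cell transcription factors sit mostly to the right of the upper line while B cell surface and signalling genes sit mostly to its left, and the cancer-testis panel shows a bright group separated from a dim remainder.

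Some T cell genes were bright while their partners were not. Of 25 measured T cell genes 8 (32%) were expressed and 2 were silent. LEF1, a Wnt pathway factor of early lymphocytes, read 11.93 and 11.80. CD3D, a chain of the T cell receptor complex, read 10.23 and 9.89, and its neighbour CD3G read 7.55 and 7.63. The chain CD3E, which belongs to the same complex and the same gene cluster, read only 4.88 and 4.78, and CD247, the zeta chain, read 5.47 and 5.55. THEMIS, a thymocyte signalling gene, was expressed by both of its probe sets (9.95 and 9.92, and 9.26 and 9.26). The kinase gene ZAP70 read 7.91 and 7.63, likewise with both probe sets in the class. LCK, the kinase that acts before ZAP70 in T cells, read 4.51 and 4.39. CD4 (7.43 and 6.95), BCL11B (7.21 and 7.04) and CD6 (6.41 and 6.65) completed the expressed members. The defining T cell genes CD2 (4.57 and 4.57), CD28 (4.44 and 4.58) and TRBC1 (4.85 and 4.82) lay below 5.

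CD3D is shown as an expressed gene whose promoter does not have the common composition. Its window is chr11:118342706-118342855 on the minus strand, with CG in capitals at 2 places.
CD3D: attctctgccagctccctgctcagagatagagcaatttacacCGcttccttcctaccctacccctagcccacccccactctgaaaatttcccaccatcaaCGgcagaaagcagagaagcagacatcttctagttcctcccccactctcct

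Markers of other blood lineages were scattered rather than general. NK and cytotoxic genes had 1 expressed member of 16, the T-box factor gene EOMES (8.65 and 7.97), while the granule genes PRF1, GNLY, NKG7 and GZMB all lay below 5.3. Myeloid genes had 4 expressed of 24, with a median of 4.44. These were CEBPB (8.31 and 8.54), the integrin gene ITGAM (8.12 and 8.66), CSF1R and CD14 (7.28 and 6.21). Lysozyme (LYZ, 4.26 and 4.00), S100A8 (4.32 and 4.38), S100A9 (4.40 and 4.39) and MPO (4.61 and 4.51), which mark monocytes and granulocytes, were near the median of that list. Dendritic cell genes had 4 expressed of 16, namely CD83, BATF3, CCR7 and the actin bundling gene FSCN1 (9.47 and 9.11), the first 3 of which activated B cells may also show. Antigen uptake and CD1 genes of that list, such as CD1C (5.5 and 5.42), were not expressed. LAMP3, another member of the list, was silent at 3.62 and 3.50.

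HBE1, the embryonic epsilon globin, was the brightest gene of the red cell and platelet list at 11.79 and 11.94, rank 444. Its other probe set read 4.36 and 4.39. In all 5 of 15 list members were expressed. The other expressed members were the adult beta globin HBB (7.0 and 7.03), the erythropoietin receptor gene EPOR (7.04 and 6.87), the blood cell factor gene TAL1 (6.44 and 6.40) and the platelet gene GP9 (6.01 and 6.02), which lay at the threshold. The red cell genes HBD (4.55 and 4.62), ALAS2 (4.98 and 5.0), GATA1 (5.41 and 5.49), KLF1 (4.18 and 4.00), AHSP (5.13 and 5.23) and SLC4A1 (5.22 and 5.12) did not reach the class. Among stromal and endothelial genes 5 of 20 were expressed. PDGFRA, a growth factor receptor of mesenchymal cells, read 9.47 and 10.48. COL1A1 (9.36 and 10.01), COL6A3 (9.13 and 9.04), smooth muscle actin (ACTA2, 8.48 and 9.61) and the chemokine CXCL12 (8.83 and 8.70) were the others. COL1A2, which encodes the partner chain of COL1A1 in type I collagen, read 4.96 and 4.66, and the fibroblast genes DCN (5.04 and 4.93), LUM (3.80 and 3.88) and COL3A1 (3.60 and 3.90) and the endothelial gene CDH5 (4.00 and 4.08) were dim or silent.

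Lists of muscle, sperm, liver, epithelial and nervous system genes and of pancreas, gut, kidney and skin genes had medians from 4.37 to 5.28, all below the 6.04 of all genes. The medians of myeloid genes (4.44) and chemokines (4.45) lay in the same range. No measured muscle gene of 15 and no sperm gene of 10 was expressed, yet only 3 and 2 of them were silent, so that most of both lists lay in the intermediate class. Liver genes had 2 expressed of 16, SERPINA1 (7.67 and 7.53) and CYP3A4 (6.64 and 6.52), with albumin (ALB) silent at 3.72 and 3.84. Of 18 genes of pancreas, gut, kidney and skin 2 were expressed and 7 (38.9%) were silent. KRT10, a keratin of the upper epidermis, was expressed by all 3 of its probe sets (11.17 and 10.96 for the brightest). Sucrase-isomaltase (SI), an enzyme of the gut lining, was among the dimmest of all genes at 2.36 and 2.39, rank 19759. Its promoter window, chr3:165078497-165078646 on the minus strand, is shown as the silent counterpart to ID2 and holds no CG, so it is in lower case throughout.
SI: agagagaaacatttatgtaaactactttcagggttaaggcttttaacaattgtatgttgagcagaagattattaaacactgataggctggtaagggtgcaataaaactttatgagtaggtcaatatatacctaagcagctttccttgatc

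Epithelial genes had 3 expressed of 13, KRT7 (8.69 and 8.14), KRT8 (6.66 and 6.81) and MUC1 (6.14 and 6.25), while the epithelial adhesion gene EPCAM was silent at 3.47 and 3.48. Nervous system genes had 3 of 15, led by the myelin gene MBP (9.17 and 8.87), which blood cells also transcribe.

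Cancer-testis genes, which are normally confined to germ cells and can be switched on in tumours, divided into a bright and a dim group. Of 18 measured, 8 (44.4%) were expressed and 4 were silent. MAGEA4 was the brightest at 12.75 and 12.79, rank 169, followed by SSX1 (12.06 and 12.04) and MAGEB2 (11.92 and 11.81). MAGEA1 (11.54 and 11.43), MAGEA10 (11.27 and 10.78), CTAG2 (10.85 and 10.53), PRAME (10.40 and 10.69) and MAGEC1 (9.76 and 9.72) made up the rest of the expressed members. None of the 18 lay between 6.5 and 9.7. The probe sets of SSX1, MAGEA1 and CTAG2 have IDs ending in _x_at and may share sequence with related genes. Their values may therefore not belong to a single gene. The silent members were MAGEA11 (2.86 and 3.06), BRDT, CTCFL and SYCP1, the last 3 of which act in germ cell chromatin and meiosis. GAGE1 read 4.08 and 4.16, but a probe set shared with related genes, left out by the rule, read 11.63 and 11.53.

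**Figure D4:**
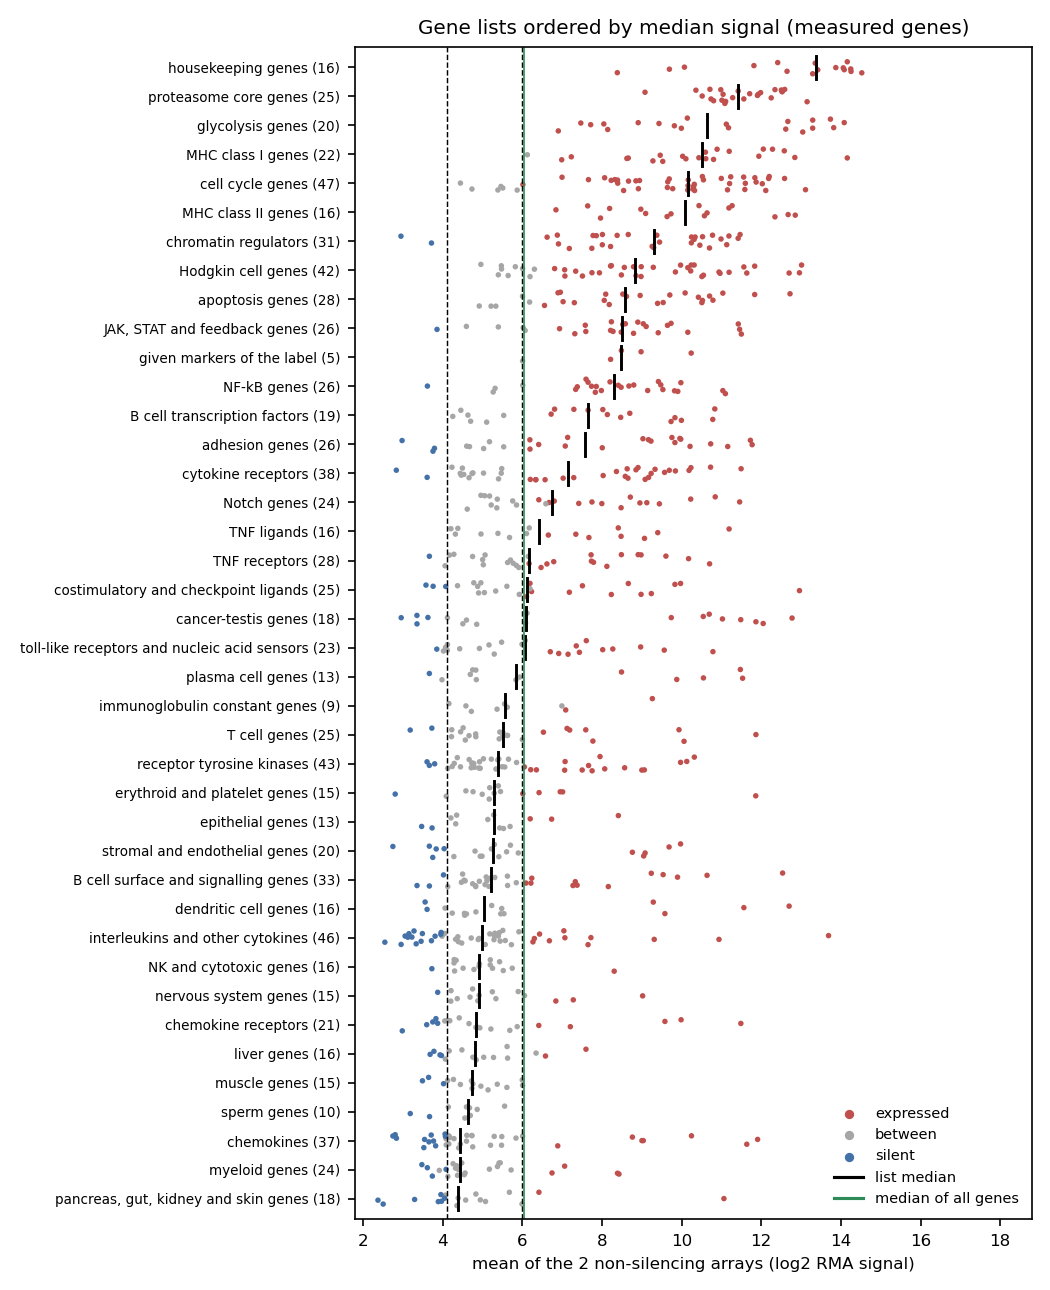
Mean log2 RMA signal of the 2 non-silencing arrays (horizontal axis) for every measured member of 40 gene lists (rows, number of genes in parentheses), coloured by class, with each list's median in black, the median of all genes (6.04) in green and dashed lines at 4.1 and 6. Housekeeping, proteasome and glycolysis lists sit at the top, the NF-kB, JAK-STAT and cytokine receptor lists lie above the median of all genes, and the medians of lists of other tissues lie below it.

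The secreted chemokines were few but bright. Of 37 measured chemokine genes 7 (18.9%) were expressed and 11 (29.7%) silent, with a median of 4.45. CXCL10, a T cell chemokine induced by interferon, read 11.60 and 12.22, and CXCL11, which uses the same receptor, read 8.58 and 9.50. CXCL9, the third ligand of that receptor, read only 4.62 and 4.58. CCL5, an attractant of T cells and eosinophils, read 11.56 and 11.71, and CCL20 read 10.12 and 10.38. The neutrophil chemokine genes CXCL8 (3.48 and 3.94), CXCL5, CXCL6 and CXCL2 were silent. Among 21 chemokine receptor genes 5 were expressed, led by CXCR4 (11.07 and 11.90), ACKR3 (10.01 and 9.97) and CCR7 (9.51 and 9.66), while CXCR5, the receptor that leads B cells into follicles, read 5.57 and 5.80.

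Cytokine ligands and receptors differed in how often they were expressed. Of 46 ligand genes 11 (23.9%) were expressed and 14 (30.4%) silent, whereas of 38 receptor genes 24 (63.2%) were expressed and 2 silent. MIF (13.71 and 13.68), EBI3 and IL15 (9.17 and 9.46) were the brightest ligands. IL6 read 6.65 and 6.71. The interleukin genes IL4, IL5, IL10, IL17A and IL33 were silent, and IL13, a growth factor for Hodgkin cells, read 5.51 and 5.29. The decoy receptor gene IL1R2 was the brightest receptor at 11.49 and 11.50. IL21R (9.77 and 9.92), IL4R (9.19 and 8.98) and IL13RA1 (8.42 and 9.29) were expressed, while IL13RA2 (2.85 and 2.82) and IL12RB2 (3.53 and 3.69) were silent. IL6ST, the signalling chain for the IL-6 family, read 8.61 and 10.05, while IL6R itself read 4.37 and 4.62. In the TNF family 14 of 28 receptors (50%) and 8 of 16 ligands (50%) were expressed, near the 49.1% of all genes. FAS (10.47 and 10.93) was the brightest receptor and CD70 the brightest ligand.

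Components of the JAK-STAT and NF-kB pathways were expressed in most cases. In the JAK-STAT list 21 of 26 genes (80.8%) were expressed, with a median of 8.50. JAK1 read 11.38 and 11.53, JAK3 read 9.17 and 8.64, and TYK2 read 9.0 and 9.22, while JAK2 fell short on array 1 (5.74 and 6.40). STAT6, the factor downstream of IL-4 and IL-13, was the brightest STAT at 10.37 and 9.94. The feedback inhibitor gene SOCS2 read 11.35 and 11.50 and SOCS1 read 8.44 and 8.53, whereas SOCS3 read 5.43 and 5.36 and SOCS6 was silent. The phosphatases PTPN11 (11.42 and 11.58) and PTPN2 (9.86 and 9.44) were also expressed. PTPRC, the leukocyte phosphatase CD45, read 8.47 on array 1 and 10.35 on array 2.

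In the NF-kB list 22 of 26 genes (84.6%) were expressed, with a median of 8.31. All 5 subunit genes were among them, namely REL (9.88 and 10.08), NFKB1 (9.51 and 9.33), RELA (8.70 and 8.65), RELB (8.36 and 8.04) and NFKB2 (7.63 and 7.67). Of 5 REL probe sets 4 were in the class. The inhibitor NFKBIA, itself an NF-kB target, was the brightest member at 11.03 and 11.17, and TNFAIP3, the A20 brake on the pathway, read 8.53 and 9.07. The NF-kB inducing kinase MAP3K14 (5.94 and 6.09), TAB1 and the deubiquitinase gene CYLD (5.25 and 5.29) did not reach the class, and TRAF5 was silent at 3.73 and 3.50.

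Genes of the MHC class I and class II lists were expressed with 1 exception, over a wide range of signal. All 16 measured genes of MHC class II presentation were expressed, with a median of 10.09. HLA-DRA (12.63 and 13.08), HLA-DPA1 (12.64 and 12.71) and HLA-DPB1 (12.16 and 12.53) led, and CIITA, the coactivator that switches on these genes, read 7.71 and 8.22. HLA-DMA (9.79 and 9.68) and HLA-DMB (9.16 and 8.79), which load peptides, were expressed, as were HLA-DOA (7.55 and 7.73) and HLA-DOB (6.97 and 6.72), which inhibit that loading. Of 22 class I genes 21 were expressed, with B2M at 14.13 and 14.19, the transporter gene TAP1 at 10.42 and 10.45 and the class I coactivator gene NLRC5 at 7.23 and 7.23. The stress ligand gene MICA read 6.93 and 7.05, and the tapasin-like gene TAPBPL (6.33 and 5.92) was the member that missed the class. HLA genes vary between people and resemble each other, which can alter the signal of single probe sets. The ligand CD86 (8.88 and 7.59) and CD80 (7.52 and 7.5), which costimulate T cells, and CD58 (9.85 and 9.81), an adhesion ligand, were expressed. In all 12 of 25 costimulatory and checkpoint genes (48%) were in the class, near the 49.1% of all genes.

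MHC class II promoters are known to carry a Y box, an inverted CCAAT element bound by the factor NF-Y. The letters CTGATTGG were found in 3 of the 10 class II list promoters searched, which are printed with that motif in capitals because it lies close before each start, beginning 49, 91 and 82 bases upstream in the order below. HLA-DRB1 is chr6:32589849-32589998, HLA-DQB1 is chr6:32666658-32666807 and HLA-DMA is chr6:32953098-32953247, all on the minus strand and all reference sequence, not the alleles of this line.
HLA-DRB1: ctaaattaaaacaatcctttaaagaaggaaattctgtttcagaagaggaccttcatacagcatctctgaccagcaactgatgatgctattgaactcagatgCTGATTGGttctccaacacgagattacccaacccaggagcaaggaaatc
HLA-DQB1: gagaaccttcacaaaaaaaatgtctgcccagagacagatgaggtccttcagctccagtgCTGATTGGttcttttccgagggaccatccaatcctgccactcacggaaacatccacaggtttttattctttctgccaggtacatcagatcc
HLA-DMA: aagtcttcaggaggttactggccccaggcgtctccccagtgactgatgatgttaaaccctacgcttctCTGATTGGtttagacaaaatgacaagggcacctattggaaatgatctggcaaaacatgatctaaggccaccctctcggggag

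The shorter CCAAT, which overlaps the Y box on its reverse strand, was present on either strand in 9 of those 10 promoters. Over all 11468 promoters searched the shares were 36.7% for CCAAT and 5.29% for CTGATTGG. The longer motif also lay before other list genes, among them B2M, HLA-B, HLA-C and CXCL10, and the silent gene IL4 (3.35 and 3.31). It was present in 4 of 12 class I list promoters and in 5 of 27 cell cycle promoters, so it was not particular to class II. CCAAT was present in 8 of the 12 and 17 of the 27.

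Genes of growth and survival were mostly expressed. Of 47 cell cycle genes 41 (87.2%) were expressed, with a median of 10.16. Thymidylate synthase (TYMS, 13.19 and 13.04), the ribonucleotide reductase gene RRM1 (12.55 and 12.62) and CDK4 (12.34 and 12.06) were the brightest. CCND2 was the bright D cyclin at 11.95 and 11.73, with CCND3 at 8.38 and 8.08, while CCND1 read 6.39 on array 1 and 4.63 on array 2. The CDK inhibitor genes CDKN2A (5.5 and 5.28) and CDKN2B (4.44 and 4.45) did not reach the class, and CDKN1B did (9.79 and 9.77). Among 28 apoptosis genes 23 were expressed, among them the anti-apoptotic genes MCL1 (9.90 and 10.27), BCL2 (7.95 and 8.24) and BCL2L1 (8.01 and 8.11). BID, a death receptor effector, was the dimmest at 4.84 and 4.99.

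All 20 glycolysis genes, all 25 proteasome genes and all 16 housekeeping genes were expressed, with medians of 10.63, 11.42 and 13.39. Chromatin regulators gave 29 of 31, led by the Polycomb genes EZH2 (11.58 and 11.36) and SUZ12 (11.47 and 11.37) and the maintenance methyltransferase gene DNMT1 (11.33 and 11.05). The other 2 were silent. These were TET1, a DNA demethylase of stem and germ cells (3.64 and 3.79), and LIN28B (2.92 and 2.98). LIN28B was in the list although it encodes an RNA-binding protein. The remaining TET genes TET3 (10.31 and 10.32) and TET2 (7.86 and 8.16) were expressed. Of 26 adhesion genes 18 (69.2%) were expressed, with the integrin gene ITGB1 at 11.50 and 11.95, the ligands ICAM1 (9.99 and 10.43) and VCAM1 (9.46 and 10.21) bright, and the endothelial selectin gene SELE silent at 3.06 and 2.90. Of 24 Notch pathway genes 14 (58.3%) were expressed, near the share of protein-coding genes. NOTCH2 (10.19 and 10.27) and NOTCH1 (7.96 and 7.54) were in the class and NOTCH3 (5.83 and 5.88) was outside it. Among 23 pattern recognition genes 11 (47.8%) were expressed, near the 49.1% of all genes and below the 56.3% of protein-coding genes. They included the adaptor gene MYD88 (10.97 and 10.60) and the endosomal receptor gene TLR7 (8.70 and 9.24). TLR9, which B cells use to sense DNA, read 5.34 and 5.25. Of 43 receptor tyrosine kinase genes 16 were expressed. RYK (10.20 and 10.44), FGFR2 (9.84 and 10.42), PDGFRA, DDR2 (8.72 and 9.41) and MET (9.01 and 8.99) led them, while KIT (4.27 and 4.47), FLT3 (4.20 and 4.28) and ALK (4.91 and 4.65) were not in the class.

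Gene families found by the pattern of their symbols gave the extremes. Of 49 translation initiation factor genes 46 were expressed. All 72 mitochondrial ribosomal protein genes and all 32 complex I subunit genes were expressed. Symbols beginning with RPL or RPS covered 81 genes, of which 74 were expressed with a median of 13.56, and they filled 25 of the 30 highest ranks. RPL41 led at 14.78 and 14.78, followed by RPL37A (14.65 and 14.65) and RPS18 (14.55 and 14.57). The pattern also took in pseudogenes and kinase genes. Of its 72 members that are not pseudogenes 68 were expressed, and the other 4 were RPL3L, a ribosomal protein of muscle, the kinase genes RPS6KL1 and RPS6KA6, and RPL36A.

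RPL36A shows a limit of the rule. It read 4.16 and 4.26, but a probe set that the platform assigns to it together with a read-through gene, and that the rule therefore left out, read 14.26 and 14.25. The same held for EIF4A2, a translation factor called silent at 3.83 and 3.58, whose probe set shared with small RNA genes read 12.68 and 12.96, and for PDCD4, silent at 2.90 and 3.09 against 10.36 and 11.01. When shared probe sets were counted for each of their genes, an alternative chosen after seeing the data, 26 of the 2769 silent genes became expressed and 140 moved up from the intermediate class.

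Receptor and barrier families were at the other end. Of 82 olfactory receptor genes 1 was expressed and 27 (32.9%) were silent. The expressed one was OR51B5 (6.47 and 6.28), and OR51B4 was next at 6.45 and 5.93. Among 18 bitter taste receptor genes 0 were expressed and 11 (61.1%) silent, and of 14 beta-defensin genes 9 (64.3%) were silent. Protocadherins had 0 expressed of 43 and interferon alpha genes 0 of 11. Potassium channel genes had 13 expressed of 85, and the calcium-activated channel gene KCNMA1 was the brightest at 9.51 and 9.92. Cytochrome P450 genes had 11 of 47, led by CYP1B1 (11.37 and 11.17), collagen genes 12 of 43, keratin genes 4 of 44 and keratin-associated protein genes 2 of 33. Of 839 LINC genes 58 (6.91%) were expressed and 344 (41%) silent. Of 425 zinc finger genes named ZNF 210 (49.4%) were expressed, near the 49.1% of all genes and below the 56.3% of protein-coding genes. HOX genes had 11 expressed of 28, led by HOXC6 (9.88 and 9.52) and HOXB9 (8.76 and 8.61), and HOXA2 (3.29 and 3.35) was the dimmest.

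Classes were compared with a property that the rule did not use, the promoter sequence. RefSeq promoters of GRCh38.p14, from 250 bases before to 50 after the start, were matched to 15382 of the 19775 genes, and the 11468 with a single listed start were described. The CpG ratio is the number of CG dinucleotides over the number expected from the C and G content, and vertebrate promoters fall into a CpG-rich and a CpG-poor kind. Its median was 0.869 in 5669 expressed genes, 0.572 in 4138 intermediate genes and 0.408 in 1661 silent genes. A ratio of at least 0.6 was found in 88.9% of expressed, 48.5% of intermediate and 38.8% of silent genes, against 67.1% of all. Among protein-coding genes alone the medians were 0.871, 0.610 and 0.519.

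Motif shares went along with the classes. CCGGAAG, the core recognised by ETS family factors, was present on either strand in 23.8% of expressed, 7.03% of intermediate and 6.74% of silent promoters. TATAAA, the core of the TATA box, ran the other way, with 4.90%, 11.8% and 18.6%. It overlaps none of the other motifs. The TATA share was not lowest in the brightest genes. It was 3.95% for control means from 8 to below 10 and 11.4% in the 245 genes at 12 or above. All these shares are descriptions of letters in a window and say nothing of binding. G and C content differed along with them, with medians of 65.7% in expressed and 52.7% in silent promoters.

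**Figure D5:**
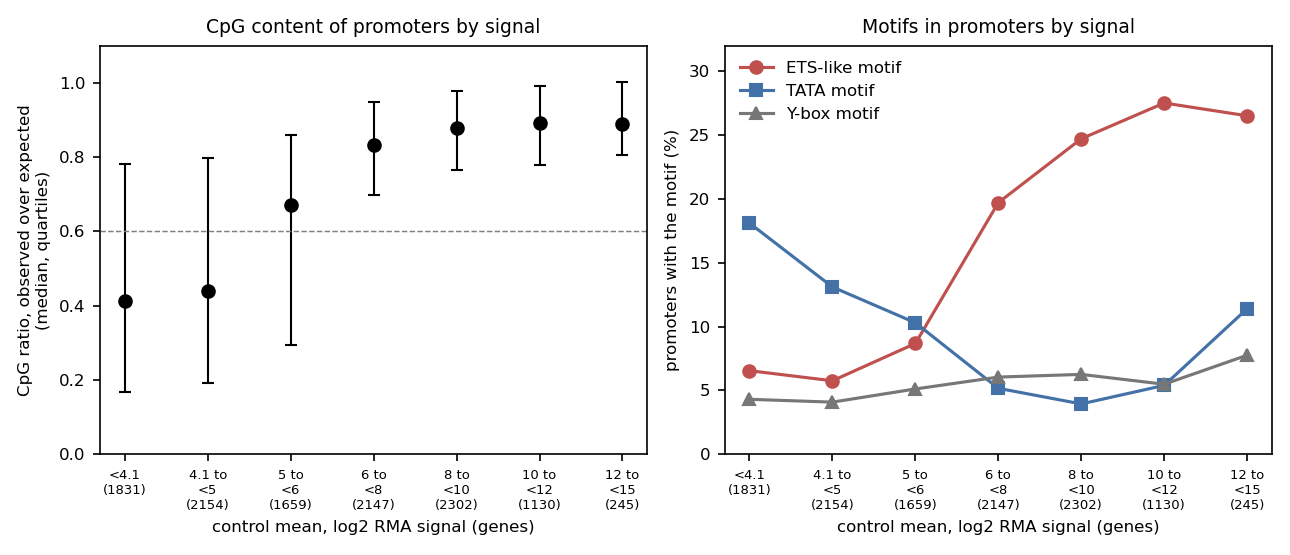
Left, median CpG ratio with quartiles of the promoters of 11468 genes by control mean (log2 RMA signal, number of genes in parentheses), with a dashed line at 0.6. Right, share of the same promoters with an ETS-like, TATA or Y-box motif on either strand. The CpG median climbs from 0.414 in the dimmest bin to 0.889 in the brightest, the ETS-like share from 6.55% to 26.5%, and the TATA share is highest in the dimmest bin (18.1%), lowest from 8 to below 10 (3.95%) and 11.4% in the brightest.

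Expressed genes of some lists were exceptions to the CpG pattern. The 10 class II list promoters, all of expressed genes, had a median ratio of 0.177 and 1 of them reached 0.6. Among the B cell surface and signalling genes that were expressed, 3 of 9 reached it, and ID2 (0.943) and CR2 (0.687) printed above were on the high side while CD3D (0.252) was not. In chemokines, most of which were not expressed, TATAAA was present in 10 of 23 promoters, against 9.38% of all. Expressed chemokines had it in 2 of 5 promoters and silent ones in 4 of 7. Proteasome genes followed the general pattern, with 16 of 17 promoters at or above 0.6. So did MHC class I genes, with 10 of 12, and expressed NF-kB genes, with 8 of 9. Among expressed Hodgkin cell genes 9 of 17 promoters reached 0.6.

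Genes of a class also formed runs along the chromosomes. Placed in RefSeq order, 19735 genes gave 2 runs of 16 expressed neighbours, the longest seen. These were PA2G4 to IL23A on chromosome 12, which includes RPL41, and ULK3 to SNX33 on chromosome 15. A run of 13 on chromosome 2 went from BCL11A to B3GNT2 and included REL, the nuclear export gene XPO1 (12.46 and 12.49) and the chaperonin gene CCT4 (12.94 and 13.11), with a median of 9.98. The longest silent run had 11 genes, from GUCY1B1 to RXFP1 on chromosome 4, with a median of 3.47 and no member above 3.89. A silent run of 6 on chromosome 1, from GIPC2 to ADGRL4, held the interferon-induced genes IFI44L (3.26 and 3.25) and IFI44 (3.78 and 3.77). Runs depend on which genes the array measured, and no test of their length was made.

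How far a class rests on the chosen probe set was described with the remaining probe sets of each gene. For 6640 expressed genes there were 14608 others, of which 45.3% were expressed and 10.5% silent, and the median gap to the chosen probe set was 2.26. For 4247 of these genes at least 1 further probe set was in the class. Expressed therefore means that some probe set of the gene was bright. The share was also tied to probe design, with 67.6% of genes expressed where the chosen probe set matches several transcripts of a family or locus (IDs ending in _s_at) and 43.2% where it has no suffix.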

How the data were processed

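The members and gene lists were chosen with earlier results of these data known. The deposited values are log2 signals per probe set that the authors made with RMA, per the submitters' processing notes. RMA corrects background, equalises the distributions of arrays and summarises probes, so array-wide shifts are removed and dim signals are compressed. For its software and settings the sources used here name nothing. Of 54675 probe sets, 41097 carried 1 gene symbol in the platform annotation, 1801 several and 11777 none, and those with 1 symbol were used. Entrez identifiers were matched to RefSeq (GRCh38.p14), and 54 probe sets were not found there and kept their platform symbol. The 40 lists name 936 genes. Of these, 865 had a probe set, and the others are not analysed here. Named were the 30 brightest genes, list and family members, genes at the thresholds, the 10 expressed genes with the largest array difference and the 15 brightest genes outside the lists. Others were named after their values were seen. Classes were also assigned in simulated data. That check says nothing about whether the thresholds mark transcription, and no result from it is used here. Python 3.11.15, pandas 2.3.3 and NumPy 2.4.6 were used. The 2 arrays limit the precision, and no test was made.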

Additional observations from a re-analysis of the deposited data

How the results depend on the processing

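The silent class depended most on its threshold. It held 2769 genes at 4.1, 1548 below 3.7 and 4255 below 4.5. The expressed class held 9707 genes at 6, 10980 at 5.5, 8738 at 6.5 and 7775 at 7. With the mean of all probe sets there were 7947 expressed and 3550 silent genes, and with probe sets without a suffix 6944 and 3003 of 16790 genes. Without replicate 1 or replicate 2 there were 9992 and 9935 expressed and 3045 and 3118 silent genes. With probe sets of several symbols included, chosen after seeing the data, there were 9873 and 2693. RMA had already equalised the distributions of the arrays, so quantile normalization and centring could change little. They and the brightest probe set over the control arrays moved each count by at most 7 genes and none of the 57 lists and families by more than 1.5 times. The expressed count of 23 lists moved by more than that without suffixed probe sets, and the silent count of 28 below 3.7. With all listed promoter starts, also chosen after seeing the data, 77.2% of expressed and 39.4% of silent starts had a CpG ratio of at least 0.6. No paired analysis was possible because the counts come from no test and from arrays of 1 group. The number of arrays and the dim signals near the trp controls limit what can be told apart.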

Other observations

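The 15 brightest genes outside the lists had varied roles, in a ranking that again follows brightness. NACA, a chaperone of new proteins, stood at rank 30 with 14.08 and 14.17. SRGN, which encodes serglycin, the proteoglycan of blood cell granules, read 13.93 and 14.24 at rank 32. The thymosin genes TMSB10 (14.04 and 14.02) and TMSB4X (13.52 and 13.64), the prothymosin gene PTMA (13.97 and 13.79), the nucleolar gene NPM1 (13.91 and 13.84) and the intermediate filament gene VIM (13.53 and 13.84) were among the next. The chaperone genes HSP90AA1 (13.87 and 13.80) and HSPD1 (13.76 and 13.79) also belonged to the 15 brightest. The other members were the mitochondrial gene COX2 (13.96 and 14.05), the splicing gene SNRPE (13.74 and 13.81), BTF3 (13.68 and 13.72), the adaptor gene YWHAQ (13.65 and 13.61), the pyrophosphatase gene PPA1 (13.58 and 13.67) and the histone gene H2AZ1 (13.61 and 13.62).

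The control arrays, labelled as technical replicates, differed in named groups of genes, and the labels do not say whether they share a culture or an RNA extract. In all 266 genes (1.35%) were at least 2-fold apart, 204 brighter on array 2 and 62 on array 1. STAP1, a B cell adaptor, read 5.0 and 8.36, the membrane protein gene TSPAN8 4.52 and 7.74, and the RNA-binding protein gene RBMS3 5.57 and 8.39. The guanylate-binding protein genes, which interferon induces, were brighter on array 2 in 6 of 6 measured members. GBP1 read 5.64 and 8.25, GBP2 5.42 and 7.64 and GBP3 5.60 and 7.64. The aldo-keto reductase genes AKR1C1 (7.97 and 9.29), AKR1C2 (7.57 and 8.97) and AKR1C3 (7.95 and 9.50) differed the same way, although probe sets of that family can share sequence.

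Genes of sterol synthesis and uptake were brighter on array 2 in 14 of 18 measured members, with a median difference of 0.56 against -0.01 over all genes. MSMO1 read 10.07 and 11.57, HMGCS1 10.53 and 11.99 and IDI1 10.97 and 12.16. Another IDI1 probe set read 10.38 and 11.52, while 2 more did not follow, at 7.21 and 7.04, and 6.45 and 6.28. The remaining 4 genes, MVK, MVD, EBP and PMVK, differed by at most 0.27 in the other direction. These groups were assembled after the values were seen, so their counts describe these arrays only.

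Genes of B cells and plasma cells, also picked after their values were seen, differed in both directions. JCHAIN, the joining chain of secreted antibodies, read 5.27 and 2.70, IGHM 8.10 and 5.89 and POU2AF1 5.18 and 3.73. The second brightest IGHM probe set followed, at 6.28 and 4.72. Other probe sets did not all follow, since 2 further IGHM probe sets read 5.94 and 6.01, and 5.09 and 5.08. The other POU2AF1 probe set read 2.75 and 3.14. For MS4A1 a probe set that the rule did not choose read 6.10 and 3.19. Brighter on array 2 were the plasma cell surface gene SLAMF7 (3.77 and 5.61), the light chain genes IGKC (6.81 and 7.37) and IGLC1 (9.02 and 9.51), and FCRLA (6.20 and 8.46), by all 3 of its probe sets. The median difference, array 2 minus array 1, was -0.09 over the plasma cell list. The selenoprotein genes GPX1 (12.31 and 11.17), SELENOH (12.34 and 11.27) and SELENOW (10.17 and 9.03) were brighter on array 1, while the median over 22 selenoprotein genes was -0.09.

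Other probe sets of the same genes that were bright on at least 1 array mostly shared the direction. Of 138 other probe sets of these 266 genes with at least 6 on either array, 127 differed in the same direction and 66 were themselves 2-fold apart. These counts are no independent check of the differences. The genes were picked by the same difference, a probe set entered by its brighter array, and dimmer probe sets were left out. PTPRC is an example of a shared direction, with 8.47 and 10.35, 7.98 and 10.16, and 6.85 and 8.85 for its 3 brightest probe sets. The difference between the 3′ and 5′ control probe sets of beta-actin, a sign of RNA integrity and amplification, was 1.31 on array 1 and 0.97 on array 2, and its part in these differences was not tested.

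The neighbours of HBE1 varied in signal. Of the 8 measured genes on its far side from HBB, OR51B5 (6.47 and 6.28) was expressed and OR51B4 (6.45 and 5.93) nearly so, the brightest pair of 82 olfactory receptor genes, while OR51B2 (4.88 and 4.97) and OR51B6 (4.17 and 4.25) were not. On the near side HBBP1 (4.68 and 4.55) and BGLT3 (4.38 and 4.62), which lie between HBE1 and HBD, were dim. Probe sets without a gene name also carried signal. Of 11777 such probe sets 1503 (12.8%) met the expressed threshold and 4399 (37.4%) the silent one, against 39.8% and 18.9% of probe sets with 1 symbol.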
